A study of Mus musculus with 2 samples.

Results

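The complement genes C1qa, C1qb, C1qc, C1s1, C2, C3, C3ar1, C5ar1 and Cfb were followed across the cells of EMT6 tumors by single-cell RNA sequencing. They were chosen by symbol, as 9 of the 55450 genes of the count matrices, and all 9 were found. EMT6 is a mouse mammary carcinoma line used as a model of triple-negative breast cancer, and 200000 cells of it were grown under the skin of BALB/c mice. The first library, Olaparib + LLY-283, came from mice given LLY-283, an inhibitor of the arginine methyltransferase PRMT5, at 50 mg/kg on a schedule of 3 days on and 4 days off, with the PARP inhibitor Olaparib at 50 mg/kg every day. The second library, Combo, came from mice that received the same drugs and 200 µg of an antibody against the checkpoint receptor PD-1 every 3 days. Both libraries therefore share Olaparib and LLY-283, and no tumor without them was analysed here. Each library pooled the tumors of 3 mice and there is 1 library per group, so differences between the libraries have no replicate check and no test was possible.

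Complement is a cascade of plasma proteins that tag cells and debris for removal. C1q, assembled from the products of C1qa, C1qb and C1qc, recognises antibody or altered surfaces, and its partner protease C1s then cuts C4 and C2 to build an enzyme that splits C3. Factor B, from Cfb, builds the corresponding enzyme of the alternative pathway, and the small fragments C3a and C5a call in myeloid cells through the receptors C3ar1 and C5ar1. The liver makes most circulating complement, whereas tissue C1q comes largely from macrophages.

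The 3 C1q genes lie side by side on the minus strand of chromosome 4 (mm10), at chr4:136880129-136886187 for C1qb, chr4:136889804-136893065 for C1qc and chr4:136895917-136898803 for C1qa, so that the whole cluster spans 18675 bases. Cfb (chr17:34856374-34862518) and C2 (chr17:34862604-34898265) are separated by 85 bases, with both on the minus strand. C3 lies further along the same chromosome at chr17:57203970-57228136, also on the minus strand. C1s1 is at chr6:124530345-124542359, C3ar1 at chr6:122847138-122856161 and C5ar1 at chr7:16246743-16259540, and these 3 genes are likewise on the minus strand. Sequence upstream of the transcription start was matched from RefSeq (GRCm38.p6) by symbol for 6 of the 9 genes, and a window of 90 bases could be read for 5 of them. All 5 windows are shown, for C1qb, C1qc and C3ar1, which were highest in macrophage-like cells, and for C3 and C1s1, which were highest in fibroblast-like cells. They are written 5′ to 3′ on the gene's strand. Capitals mark GAGGAA, a form of the sites bound by the myeloid ETS factor PU.1, or TTGCNNAA, the form of C/EBP sites, on either strand. Shorter forms of ETS sites were not marked.
C1qb, chr4:136886201-136886290: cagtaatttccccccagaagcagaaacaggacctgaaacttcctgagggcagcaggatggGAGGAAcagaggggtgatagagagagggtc
C1qc, chr4:136893066-136893155: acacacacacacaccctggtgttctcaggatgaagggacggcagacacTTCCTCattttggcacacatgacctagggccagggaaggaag
C3ar1, chr6:122856162-122856251: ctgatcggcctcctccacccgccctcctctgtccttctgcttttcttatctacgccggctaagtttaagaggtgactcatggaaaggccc
C3, chr17:57228137-57228226: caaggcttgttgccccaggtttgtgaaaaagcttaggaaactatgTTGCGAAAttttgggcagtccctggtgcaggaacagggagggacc
C1s1, chr6:124542360-124542449: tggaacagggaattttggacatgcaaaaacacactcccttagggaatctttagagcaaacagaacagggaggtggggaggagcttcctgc
The C1qc window lies 151 bases and the C3ar1 window 4 bases above the RefSeq start, and the other 3 end at theirs. GAGGAA was present in the C1qb window and, on the opposite strand, in the C1qc window, against 8.93% of 32851 windows of the same length. TTGCNNAA was present in the C3 window, against 2.95% of windows. Neither motif was found in the C3ar1 or the C1s1 window, and a match is a run of letters, not a site shown to be bound.

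The Olaparib + LLY-283 library held 16115 cells with a median of 7376 unique molecular identifiers (UMIs, each standing for 1 captured RNA molecule), and the Combo library held 7542 cells with a median of 3613.5. Of these, 13974 and 5672 cells remained after filtering and removal of likely doublets, with 0.534% and 21.0% failing the filter on genes and mitochondrial share, and 23 barcodes occurred in both sets of remaining cells. Cells were grouped without any complement gene and named from marker lists, which gave (Olaparib + LLY-283 first, Combo second, here and in every pair of values) 891 and 499 macrophage-like cells, 154 and 118 dendritic-like cells, 597 and 841 neutrophil-like cells, 240 and 63 cells like cancer-associated fibroblasts (CAF-like) and 10794 and 2728 tumor-like cells. In the macrophage-like cells 10 of 12 markers had their highest level of any class in both libraries, and in the CAF-like cells 9 and 10 of 10 did. The dendritic-like cells were less clear, since Flt3, Xcr1 and Clec9a were at 0 in the Olaparib + LLY-283 library and only 7 of 13 markers were highest there. Only 3 and 6 of 8 markers were highest in the tumor-like cells. Depth differed between the libraries within a class: the macrophage-like cells had a median of 1875 UMIs with Olaparib + LLY-283 and 11124 with Combo. Levels are therefore given as CPM (a gene's UMIs over all UMIs of a class, scaled to 1000000) and detection as the share of cells with a UMI after each cell was thinned to 1000 UMIs. Intervals are 95% and cover counting error only, not the spread between mice.

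**Figure D1:**
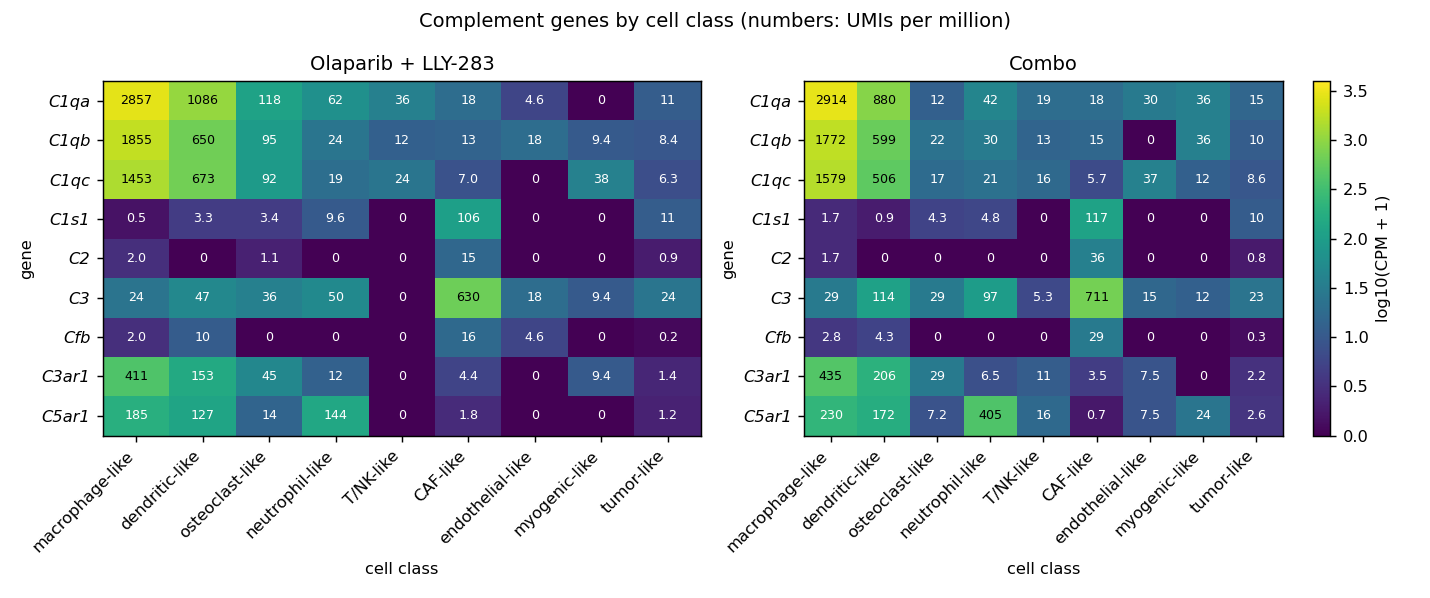
Level of each complement gene (rows) in each cell class (columns), 1 panel per library, coloured by log10(CPM + 1) from dark (0) to yellow (high), with the CPM written in each cell. The C1q genes and C3ar1 peak in the macrophage-like cells and C1s1, C2, C3 and Cfb in the CAF-like cells in both libraries, whereas the highest C5ar1 level is in macrophage-like cells (185 CPM) for Olaparib + LLY-283 and in neutrophil-like cells (405 CPM) for Combo.

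The genes fell into a macrophage set, a fibroblast set and C5ar1. The macrophage-like cells had the highest CPM in both libraries for 4 of the 8 genes with at least 200 UMIs (C1qa, C1qb, C1qc and C3ar1), against 3.49% of 13027 genes. The CAF-like cells had the highest CPM in both libraries for 3 of the 8 (C1s1, C2 and C3), against 7.27%. Cfb, with 51 and 112 UMIs in all, fell below that minimum, and its highest level was also in CAF-like cells.

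C1qa stood at 2857 CPM (2783 to 2932) in the Olaparib + LLY-283 macrophage-like cells and 2914 CPM (2871 to 2958) in the Combo ones. These levels rest on 5673 and 17494 UMIs. C1qb stood at 1855 and 1772 CPM and C1qc at 1453 and 1579 CPM, from 3684 and 10636 and from 2886 and 9479 UMIs. The macrophage-like cells, a small class in both tumors, held 74.6% and 77.2% of all C1qa UMIs. The summed C1q level was 6165 CPM (6056 to 6275) and 6266 CPM (6202 to 6329), a log2 ratio of Combo over Olaparib + LLY-283 of 0.02 (-0.01 to 0.05). That ratio ran from -0.37 to 0.17 when cells were filtered, weighted or grouped in other ways, so its direction is not settled. Thinned to 1000 UMIs, C1qa was seen in 59.8% (56.0 to 63.4) of 708 and 53.6% (49.1 to 58.1) of 485 macrophage-like cells, compared with 1.09% and 1.56% of tumor-like cells.

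The other named classes stood lower. For the unnamed cells with macrophage markers, 62 and 121 in number, the summed C1q level was 2619 and 3151 CPM. Their log2 ratio was 0.27 (0.13 to 0.40). The summed C1q level was 2408 and 1985 CPM in dendritic-like cells, and the 5 cells with the most C1q held 52.6% and 50.1% of those UMIs. Split by the genes they carried, a split chosen after the values were seen, 20 and 19 dendritic-like cells with dendritic genes only had 23.2 CPM (0.588 to 129) and 42.4 CPM (19.4 to 80.4), from 1 and 9 UMIs. The 78 and 77 cells with macrophage genes only had 4313 and 2928 CPM. The 5 and 10 cells with both had 148 and 742 CPM, and the 51 and 12 cells with neither had 423 and 371 CPM. Osteoclast-like cells had 304 and 50.7 CPM, and 5 cells held 79.2% of the UMIs in the Olaparib + LLY-283 library. T/NK-like cells, which should lack C1q, had 71.4 and 47.7 CPM, CAF-like cells 38.7 and 39.0 CPM and tumor-like cells 25.3 and 33.7 CPM. The tumor-like level was 0.411% and 0.537% of the macrophage-like level, whereas the 12 macrophage markers stood in tumor-like cells at a median of 0.501% and 0.761% of their macrophage-like level. Of the tumor-like cells 2 of 10692 and 1 of 2641 reached 1000 CPM of C1q, and the part of free RNA in these UMIs was not tested.

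**Figure D2:**
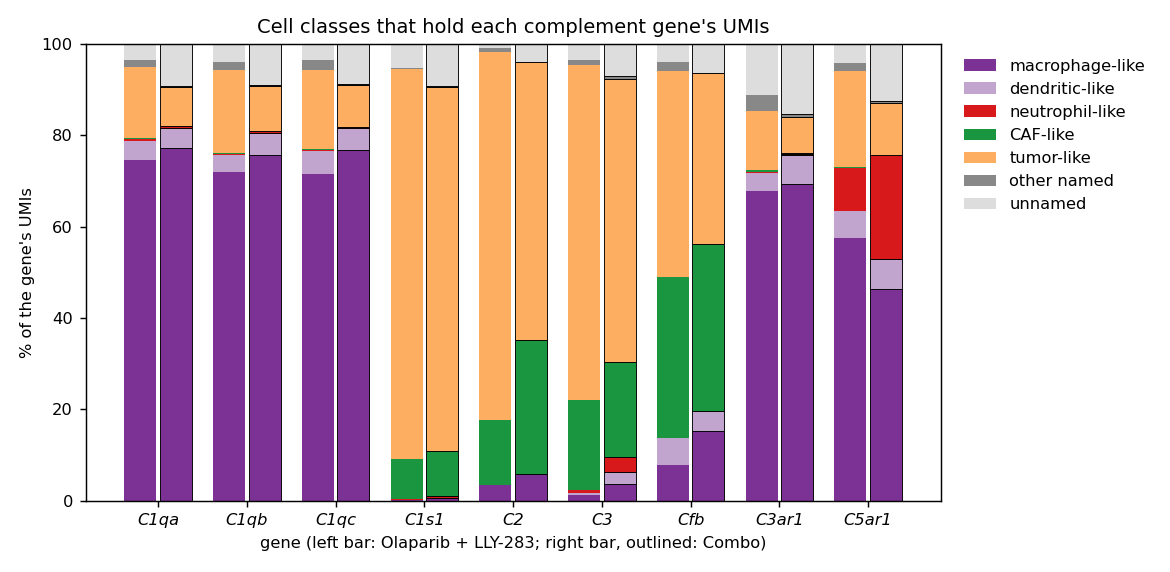
Share of each gene's UMIs held by each cell class, in percent, as stacked bars from 0 to 100, with the Olaparib + LLY-283 library on the left and the Combo library, outlined, on the right of each pair. Macrophage-like cells hold 74.6% and 77.2% of C1qa UMIs, and tumor-like cells hold 73.3% and 62.1% of C3 UMIs although their CPM is low.

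C1q was uneven among macrophage-like cells. Of the cells with at least 1000 UMIs, 27.8% and 23.7% had no UMI of any C1q gene at full depth, with medians of 2290 and 11387 UMIs. Thinned to 1000 UMIs, 67.7% (64.1 to 71.1) and 60.8% (56.3 to 65.2) had a C1q UMI, so the libraries are ordered the other way at equal depth. Of the same cells 43.6% and 40.2% had at least 5000 CPM of C1q, and the highest cells reached 32665 and 24560 CPM. In the deeper Combo library C1qa was missing from 32.0% of cells at a mean of 2918 CPM, whereas Ms4a7, a macrophage membrane gene, was missing from 11.5% at 1063 CPM and C3ar1 from 63 of the 485 cells at 435 CPM. A gene of lower level was therefore found in more of the cells. In the Olaparib + LLY-283 library C1qa was missing from 33.9%, Ms4a7 from 30.5% and C3ar1 from 45.2% of cells. Cells with under 1000 CPM of C1q carried more monocyte genes: of 10 such genes, 9 and 8 were lower in cells with at least 5000 CPM of C1q, with a median fold of 0.37 and 0.33. Ccr2, the receptor that brings monocytes into tissue, stood at 443 and 633 CPM in the low cells and 161 and 268 CPM in the high cells. Mrc1, a scavenging receptor of mature macrophages, ran the other way, at 398 and 516 CPM in the low and 1051 and 1422 CPM in the high cells. Of 12 macrophage markers, 11 and 10 were higher in the high cells. C3ar1 differed little, at 379 and 410 CPM in the low and 443 and 451 CPM in the high cells. The cells were split on C1q itself, so these values are a description.

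**Figure D3:**
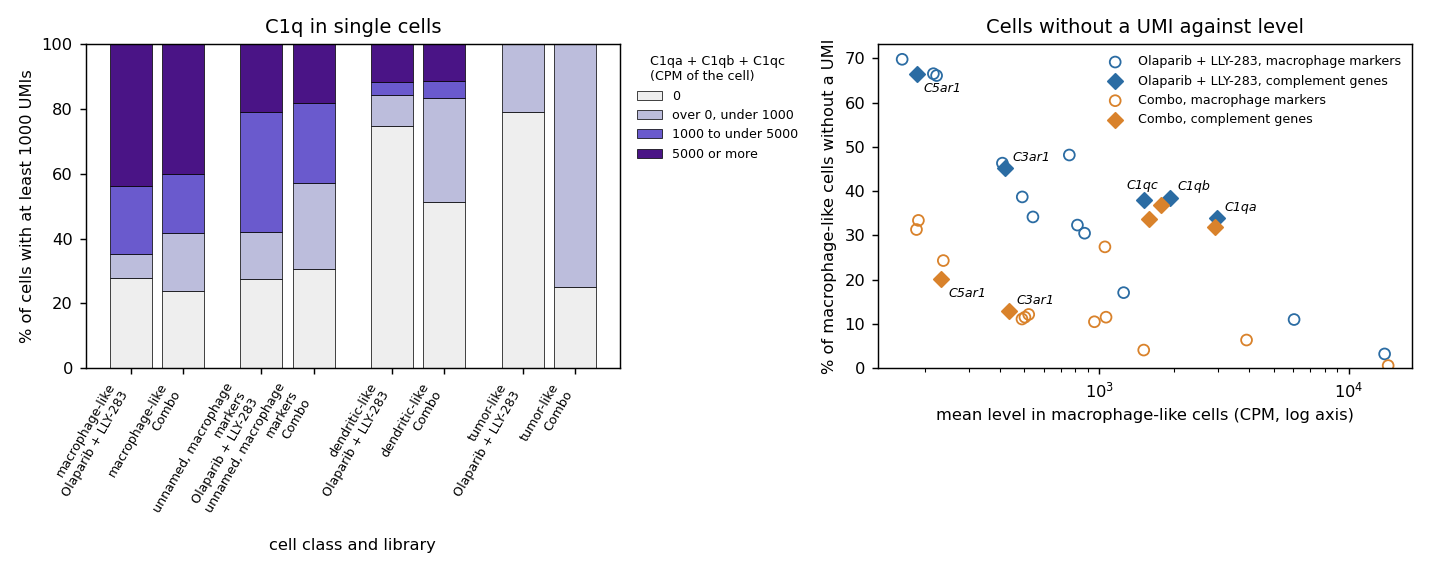
Left, percent of cells with at least 1000 UMIs in each of 4 ranges of the cell's own summed C1q CPM, by class and library, without thinning. Right, percent of macrophage-like cells without a UMI of a gene (vertical axis) against its mean CPM there (log axis), for complement genes (diamonds) and macrophage markers (open circles), in which the C1q genes of the Combo library lie above markers of lower level such as Ms4a7.

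The macrophage clusters differed as well. The cluster led by Lyve1 and Cd163, genes of resident-type macrophages, had a summed C1q level of 8652 and 8473 CPM over 133 and 111 cells, a log2 ratio of -0.03 (-0.09 to 0.03). The cluster led by Gatm, Fcrls and Ms4a7 had 6461 and 5500 CPM, a log2 ratio of -0.23 (-0.28 to -0.19). A cluster led by Ccl12, with 37 and 30 cells, was higher in Combo, at 4860 and 6994 CPM and a log2 ratio of 0.53 (0.40 to 0.65). One led by Cxcl11 and Ifi209, with 19 and 27 cells, had 8520 and 3868 CPM, a log2 ratio of -1.14 (-1.29 to -0.99). The cluster led by Fabp5, Mmp12 and Apoe had 4425 CPM over 435 cells and 2434 CPM over 60 cells, a log2 ratio of -0.86 (-0.99 to -0.74). It was the largest cluster of the class in the Olaparib + LLY-283 library, whereas the Gatm cluster was the largest in the Combo library, with 271 of 499 cells. The near-equal level of the whole class thus sat on a different mix of clusters, and the part of that mix in the ratio was not tested.

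C3ar1, the receptor for C3a, was highest among the named classes in the same class as C1q. It stood at 411 CPM (383 to 440) and 435 CPM (418 to 452) in macrophage-like cells, from 816 and 2610 UMIs, a log2 ratio of 0.08 (-0.03 to 0.20), and was seen in 31.5% and 31.3% of thinned cells. The unnamed cells with macrophage markers had 670 and 428 CPM, a log2 ratio of -0.65 (-0.93 to -0.36). Dendritic-like cells had 153 and 206 CPM, osteoclast-like cells 45.2 and 29.0 CPM and neutrophil-like cells 12.0 and 6.55 CPM. In tumor-like cells the level was 1.40 and 2.25 CPM, or 0.134% and 0.231% of thinned cells. The macrophage-like cells were above the dendritic-like cells in both libraries with intervals that did not overlap.

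C5ar1, the receptor for C5a that draws neutrophils, had its highest level in a different class in each library, though intervals separated the leading classes only in Combo. In the Olaparib + LLY-283 library macrophage-like cells had 185 CPM (166 to 205) and neutrophil-like cells 144 CPM (110 to 186), and these intervals overlap. In the Combo library neutrophil-like cells had 405 CPM (375 to 436) and macrophage-like cells 230 CPM (218 to 243). The log2 ratio was 1.49 (1.11 to 1.90) in neutrophil-like cells, from 60 and 680 UMIs, and 0.32 (0.15 to 0.49) in macrophage-like cells. The unnamed cells with neutrophil markers, 54 and 571 in number, had 42.2 and 190 CPM from 2 and 200 UMIs. With them added to the neutrophil-like cells, the level was 134 and 322 CPM, a log2 ratio of 1.27 (0.90 to 1.66). C5ar1 was the 1 gene of 5 counted in neutrophil-like cells that was past 2-fold, against 12.8% of 2529 genes, the highest share of the 5 classes counted. Depth moved with this result: only 33 of the 597 Olaparib + LLY-283 neutrophil-like cells reached 1000 UMIs. Thinned to 500 UMIs, C5ar1 was seen in 7.35% of 597 and 17.2% of 841 cells. The clusters also differed, since 584 of those 597 cells lay in the cluster led by Retnlg, Stfa2 and Gm5483, which held 115 Combo cells. Within that cluster C5ar1 went the opposite way, at 146 and 48.5 CPM from 59 and 6 UMIs, a log2 ratio of -1.59 (-3.09 to -0.38). The Combo cells lay mostly in 3 other clusters at 404 to 457 CPM that had 7, 3 and 3 cells in the other library. Neutrophil markers also differed between the libraries in this class: Csf3r (341 and 957 CPM), Cxcr2 (519 and 1154 CPM) and Hdc (956 and 2450 CPM) were higher in Combo. Retnlg (1996 and 1114 CPM) and Stfa2l1 (1378 and 1249 CPM) were lower. The part of depth and of class and cluster makeup in the C5ar1 ratio was not tested.

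**Figure D4:**
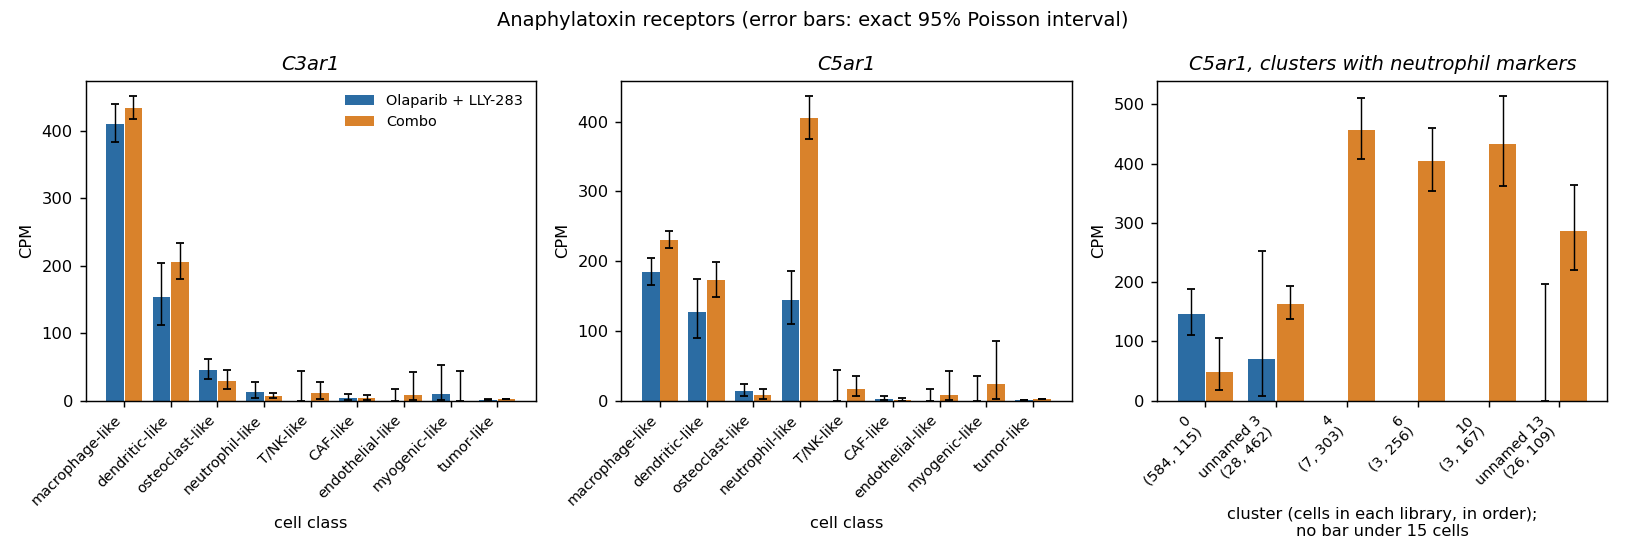
CPM of C3ar1 and C5ar1 by cell class, and of C5ar1 by cluster with neutrophil markers, for Olaparib + LLY-283 (blue) and Combo (orange), with error bars for exact 95% Poisson intervals and no bar for clusters under 15 cells. C3ar1 is highest in macrophage-like cells in both libraries, and the Combo neutrophil-like level of 405 CPM comes from clusters at 404 to 457 CPM that hold few cells of the other library.

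C3, the protein on which all complement pathways meet, was highest in CAF-like cells, at 630 CPM (585 to 678) and 711 CPM (668 to 756), from 717 and 1003 UMIs. It was seen in 42.7% (36.5 to 49.5) and 44.4% (30.9 to 58.6) of thinned CAF-like cells. Among the named classes the next levels were 50.4 and 97.0 CPM in neutrophil-like cells and 46.6 and 114 CPM in dendritic-like cells. Macrophage-like cells had only 23.7 and 29.3 CPM. Within them the cluster led by Fabp5, Mmp12 and Apoe had 26.8 and 110 CPM from 18 and 30 UMIs, a log2 ratio of 2.04 (1.15 to 2.97). The intervals held 0 in the Gatm (0.57, -0.36 to 1.63), Lyve1 (-0.31, -1.26 to 0.75) and Cxcl11 (1.16, -0.54 to 3.53) clusters. The unnamed cells with CAF markers, 322 and 110 in number, had 33.3 and 53.6 CPM, far below the CAF-like cells. Unnamed cells of low UMI count with high keratin, 568 and 459 in number, had 79.5 and 51.8 CPM from 67 and 50 UMIs. Tumor-like cells had 23.8 and 22.9 CPM, a log2 ratio of -0.06 (-0.13 to 0.02), yet as the largest class they held 73.3% and 62.1% of all C3 UMIs, compared with 19.9% and 20.7% for CAF-like cells. In tumor-like cells C3 stood at 3.78% and 3.22% of its CAF-like level, compared with a median of 1.23% and 1.05% for 10 CAF markers, whose range ran from 0.210% to 112% and from 0.125% to 56.9%. Across tumor clusters C3 ran from 18.2 to 39.7 CPM in the Olaparib + LLY-283 library and from 10.6 to 35.1 CPM in the Combo library.

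C1s1, the protease partner of C1q, was highest in CAF-like cells and not in the macrophage-like cells that led for C1q. It stood at 106 CPM (88.3 to 127) and 117 CPM (99.8 to 136) in CAF-like cells, and at 10.7 and 10.2 CPM in tumor-like cells, which held 85.5% and 79.7% of its UMIs. The unnamed cells with CAF markers had 29.1 and 38.2 CPM. The macrophage-like cells gave 1 and 10 UMIs, or 0.504 and 1.67 CPM. T/NK-like cells gave no C1s1 UMI, which allows a level of up to 35.7 and 7.95 CPM. The tumor-like level was 10.1% and 8.72% of the CAF-like level, above the median of the CAF markers. Of those markers only Pdgfrb (112% and 56.9%) and Pdgfra (12.4% and 13.8%) had a higher share. C1s1 shares sequence with its paralog C1s2, and how reads were divided between them is uncertain, as it is for C1ra and C1rb and for C4a and C4b.

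C2, which supplies the enzyme part of the classical C3 convertase, stood at 14.9 CPM (8.71 to 23.9) and 36.2 CPM (26.9 to 47.5) in CAF-like cells, from 17 and 51 UMIs. Cfb stood at 15.8 CPM (9.38 to 25.0) and 29.1 CPM (20.9 to 39.4), from 18 and 41 UMIs. The Olaparib + LLY-283 dendritic-like cells had 9.99 CPM of Cfb from 3 UMIs, which the interval does not separate from the CAF-like level. In tumor-like cells both genes were low, with C2 at 0.865 and 0.798 CPM and Cfb at 0.207 and 0.319 CPM. At full depth 15 and 27 CAF-like cells held both Cfb and C3, and 2 and 0 held Cfb without C3, where C3 was seen in 71.7% and 87.3% of all CAF-like cells.

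**Figure D5:**
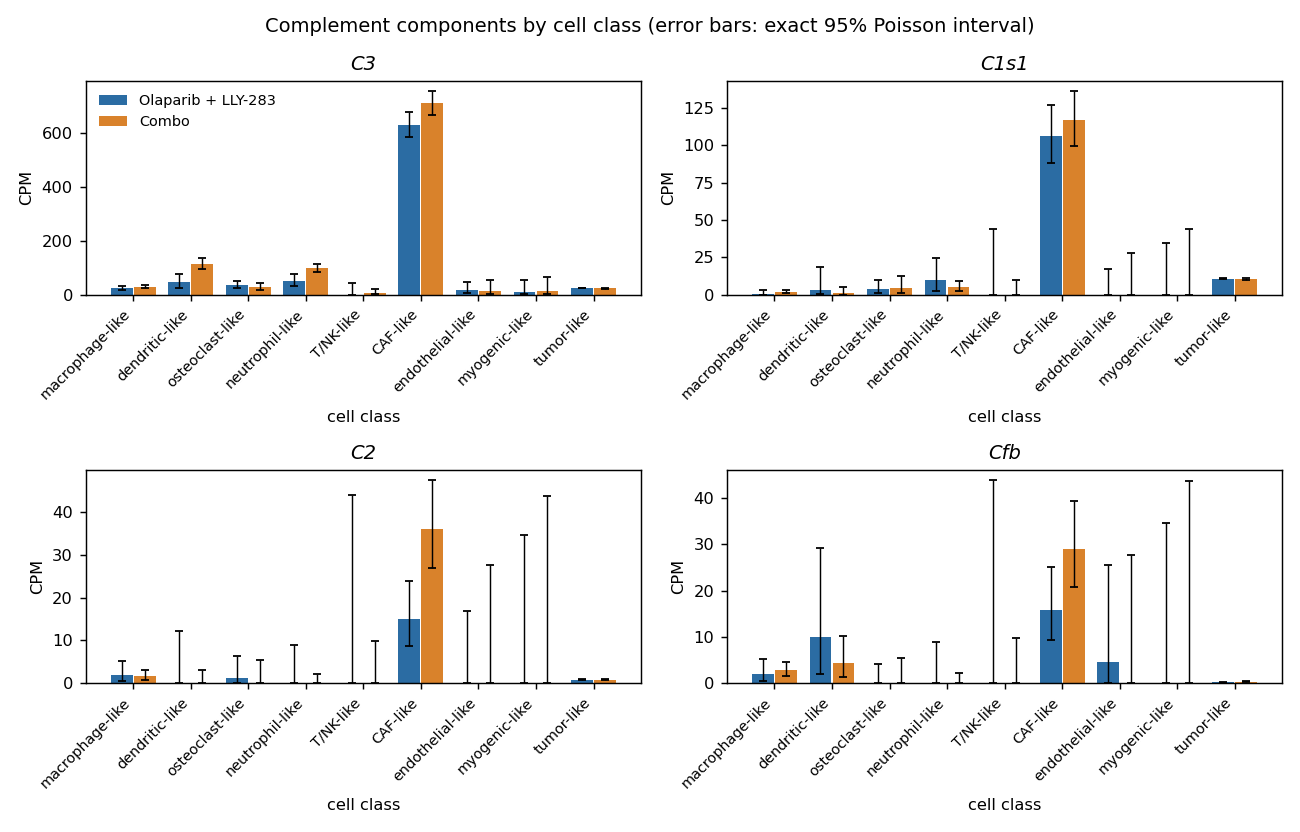
CPM of C3, C1s1, C2 and Cfb by cell class, 1 panel per gene with its own axis from 0, for Olaparib + LLY-283 (blue) and Combo (orange), with error bars for exact 95% Poisson intervals. The CAF-like bars are the highest in every panel in both libraries, and the long error bars at 0 mark classes of few UMIs.

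The CAF-like cells formed a pair of clusters, and C3 and C1s1 were higher in the one led by Dpt, Clec3b and Fstl1. There C3 stood at 807 and 816 CPM and C1s1 at 138 and 142 CPM over 179 and 44 cells. In the cluster led by Crabp1, Serpine2 and Tnc, with 61 and 19 cells, C3 stood at 230 and 394 CPM and C1s1 at 34.5 and 42.6 CPM. C2 did not separate the clusters, at 13.9 and 36.9 CPM in the Dpt cluster and 17.3 and 34.0 CPM in the Crabp1 cluster, and the Cfb intervals of the clusters overlapped. Within the Dpt cluster C3 did not separate the libraries, with a log2 ratio of 0.02 (-0.13 to 0.17), while C2 had 1.40 (0.41 to 2.52) and Cfb 1.05 (0.10 to 2.09).

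Between the libraries, the genes past 2-fold differed from class to class. In macrophage-like cells 0 of the 7 genes with enough UMIs did, against 1.32% of genes, and their median log2 ratio of 0.12 was near the 0.10 of all genes. With doublets kept, 2 of the genes were past 2-fold. In CAF-like cells 1 of 6 did, against 1.47%, namely C2 with a log2 ratio of 1.27 (0.46 to 2.16). It rests on 17 and 51 UMIs, whereas the share of all genes took only genes with at least 100. In dendritic-like cells 1 of 6 did, against 1.86%, namely C3 with 1.29 (0.49 to 2.20) from 14 and 131 UMIs, and this ratio turned to -0.17 when classes were taken from each cell's own marker UMIs. In osteoclast-like cells, with 128 and 29 cells, C1qa had a log2 ratio of -3.34 (-4.59 to -2.31), C1qb -2.13 (-3.03 to -1.32) and C1qc -2.40 (-3.41 to -1.51). There 5 cells held most of the Olaparib + LLY-283 UMIs, and the share of all genes past 2-fold was not counted. The osteoclast markers Acp5 (2594 and 7829 CPM) and Ctsk (2422 and 5549 CPM) also differed between the libraries in this class. The part of class makeup in these ratios was not tested. In tumor-like cells 1 of 9 did, against 1.6%, namely C5ar1 at 1.21 and 2.58 CPM, and C3ar1 and the C1q genes also stood higher in that class in the Combo library. The median of 12 macrophage markers in tumor-like cells, as a share of their macrophage-like level, moved with them from 0.501% to 0.761%, and its part in the result was not tested.

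The rest of the pathway followed the same division for several components. Of 45 other complement genes 19 had at least 200 UMIs, and 8 of these had their highest level in CAF-like cells in both libraries, against 7.27% of all genes. Serping1, the inhibitor of C1r and C1s, stood at 849 and 922 CPM there and C4b at 237 and 315 CPM. Cd55, which takes convertases apart, stood at 198 and 196 CPM in CAF-like cells. In the Combo library its interval overlapped that of T/NK-like cells, at 164 CPM from 62 UMIs. C1ra, whose product activates C1s, had 80.0 and 165 CPM in CAF-like cells and 15.3 and 22.0 CPM in tumor-like cells. The macrophage-like cells led for 3 genes, against 3.49%, the ficolin Fcna at 84.1 and 74.3 CPM, the collectin Colec12 at 175 and 145 CPM, and Itgam, a chain of complement receptor 3, at 365 and 440 CPM. The intervals did not separate Colec12 from its level in CAF-like cells in either library, nor Itgam from its level in dendritic-like cells with Olaparib + LLY-283. None of 7 genes of the terminal pathway, which makes the membrane pore, had enough UMIs to lead a class. Past 2-fold between the libraries in macrophage-like cells were 2 of the 19 pathway genes counted, both higher in Combo, against 1.32% of all genes. In CAF-like cells 1 was higher and 1 lower of 13, against 1.47%, and in dendritic-like cells 0 of 9 were, against 1.86%. In tumor-like cells 3 were higher and 1 lower of 24, against 1.6%. The 3 higher were Itgb2 (4.44 and 9.57 CPM), Itgax (0.171 and 0.418 CPM) and Vsig4 (0.0541 and 0.114 CPM). The median share of the macrophage markers there, 0.501% and 0.761% of their macrophage-like level, was also higher in Combo, and its part was not tested. In neutrophil-like cells 4 were higher and 1 lower of 11, against 12.8%. The pathway genes were counted from 20 UMIs in a class and the shares of all genes from 100, so the floors differ. Under 100 were Itgax, Vsig4 and C4bp in tumor-like cells, Itgax in macrophage-like cells and Clu in CAF-like cells. In neutrophil-like cells C5ar2, with 1 and 26 UMIs, and Itgax, with 2 and 41, were also under it.

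The genes most like each member were found from its level over 16 points, 8 classes in each of the libraries, among 13007 genes. For C1qb they were Lyz2, Pf4 and Adgre1, with Pearson's r of 0.97, 0.97 and 0.96. C3ar1 was nearest to F13a1, Ms4a7 and Rassf4, at 0.97, 0.97 and 0.95. C5ar1 was nearest to Pirb, Nlrp3 and Gm45222, at 0.97 for each. C3 was nearest to Mgst1, Mbnl2 and Dram1, at 0.94, 0.91 and 0.91, and C1s1 to Ms4a4d, Adamts4 and Cyb561, at 0.96, 0.94 and 0.94. The points share libraries and depth, so the correlations are a description.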

How the data were processed

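Single-cell suspensions of EMT6 tumors were sequenced with the 10x Genomics 3′ kit, 1 library per group. The authors aligned reads to mm10 and counted UMIs with Cell Ranger, version 6.1.2 per the file headers (the study's methods name another version), and deposited raw counts, a filtered matrix for each library. bcl2fastq 5.0.1 and Seurat 4.1.0 are named in the submitters' processing notes. Groups followed the labels, and neither library could be split by mouse. The members, gene lists and marker lists were chosen with earlier results of these data known.

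The filter on cells required 200 genes or more and a mitochondrial share under 20%. The doublet caller's own threshold marked no cell, so the cells with the highest scores, at the rate expected of 0.8% per 1000 cells, were removed, 2055 and 284 in number. Clusters were made with scanpy 1.11.5 (2000 variable genes, 30 principal components, Leiden resolution 1.3, in 2 steps) without the 9 genes and 45 other complement genes. A cluster was named where its markers averaged a log2 fold of at least 2 and at least 3 exceeded 2-fold. In addition, no other marker list could have more genes among the 10 leading genes of the cluster. A cluster of low UMIs also could not be named if none of its markers was among them. Tumor-like clusters were those left with high keratin, except a cluster of low UMIs, with 568 and 459 cells, which stayed unnamed. This naming rule was set after the data were seen. Clusters that carried markers of a class but failed the rule stayed unnamed. They hold 62 and 121 cells with macrophage markers, 54 and 571 with neutrophil markers and 322 and 110 with CAF markers. Those with macrophage or neutrophil markers passed on fold and failed only on the leading genes.

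UMIs were summed per class and divided by all UMIs of the class to give CPM. Intervals were exact Poisson for CPM, Clopper-Pearson for shares and conditional binomial for ratios. A count of 0 was given a limit of 3 counts. Thinned shares are the expected share of cells with a UMI when each cell is drawn down to 1000 UMIs, leaving out shallower cells. Log2 ratios needed at least 20 UMIs in a class, and the share of all genes past 2-fold counted genes with at least 100. Genes most like a member were ranked by Pearson's r of log2(CPM + 1). Scripts were tested on simulated data. The members were named whatever their values, and other pathway genes only from the list of 45, mostly where they had at least 200 UMIs.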

Additional observations from a re-analysis of the deposited data

How the results depend on the processing

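No paired analysis was possible because each group is 1 library without a replicate number, so no library could be left out either. The count of genes highest in macrophage-like cells in both libraries was 4 under all alternatives run, and the C3 ratio in tumor-like cells stayed between -0.09 and 0.01. The summed C1q log2 ratio in macrophage-like cells (0.02) was 0.057 with no cell filter, -0.0079 under 10% mitochondrial UMIs and 0.17 with doublets kept. It was -0.068 and -0.10 at resolutions 0.8 and 2.0, -0.040 with 20 principal components and -0.10 with complement genes among the variable genes. As the mean of each cell's CPM it was -0.016. That mean gave -0.15, -0.016 and -0.37 when only cells with at least 1000, 500 and 2000 UMIs were kept. The median log2 ratio of the members there (0.12) was 0.22 with doublets kept, and 0.034 and -0.031 at resolutions 0.8 and 2.0. It was 0.054 with 20 principal components and 0.020 with complement genes among the variable genes. The mean of each cell's CPM over cells with at least 1000 and 2000 UMIs gave -0.041 and -0.049. With doublets kept C1s1 (-1.09) and Cfb (2.61) were the 2 members past 2-fold there. Adding the unnamed clusters to the class whose markers they carry, chosen after seeing the data, gave -0.035 for summed C1q and 0.056 for the median. It also moved the highest Cfb level in the Olaparib + LLY-283 library from CAF-like to dendritic-like cells. C3 in dendritic-like cells turned to -0.17 when classes came from each cell's own marker UMIs. The neutrophil-like class of the Olaparib + LLY-283 library, behind the C5ar1 ratio, held 416436 UMIs in the main setting and 8020 at resolution 0.8. The cause of these shifts was not tested. Of 439 log2 ratios of a member in a class over these alternatives, 364 stayed inside the counting interval of the reported value. For the CPM of a member in a class 584 of 903 values stayed inside and 319 moved out. For thinned shares 790 of 903 stayed inside and 113 moved out. C2 and Cfb rest on few UMIs.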

Other observations

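Interferon-stimulated genes (ISGs) are a program that PRMT5 inhibition is studied for in this model. Within a class, among cells with at least 1000 UMIs, the complement genes were compared between the 10% with the highest share of 16 ISGs and the other cells, as a description. In the Combo macrophage-like cells C3 stood at 111 CPM (83.6 to 145) in the 49 ISG-high cells and 22.0 CPM (18.2 to 26.3) in the other 436, from 54 and 121 UMIs. With Olaparib + LLY-283 alone it stood at 35.4 CPM (14.2 to 72.9) from 7 UMIs and 22.4 CPM (15.8 to 30.9). In the Combo macrophage-like cells C1qa and C1qc differed little, at 2866 and 2923 CPM and at 1575 and 1580 CPM. C1qb was higher in the ISG-high cells, at 1988 and 1755 CPM, a log2 ratio of 0.18 (0.08 to 0.28). In the Olaparib + LLY-283 library C1qa stood at 3526 CPM in the ISG-high cells and 2907 CPM in the rest. There C1qb stood at 2283 and 1879 CPM and C1qc at 1940 and 1462 CPM. C5ar1 went the other way, at 121 and 192 CPM, a log2 ratio of -0.67 (-1.33 to -0.07).

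In tumor-like cells of the Combo library C1s1 stood at 15.9 CPM in ISG-high cells and 9.60 CPM in the rest, and C3 at 30.3 and 22.1 CPM. In the Olaparib + LLY-283 library C1s1 stood at 13.5 and 10.4 CPM, while C3 was close, at 25.3 and 23.7 CPM. C1qa did not separate the groups in either library, at 14.9 and 14.6 CPM in Combo and 10.5 and 10.7 CPM in Olaparib + LLY-283. The cells were split within 1 library, so these differences rest on cells and not on replicates.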
